A study of Mus musculus with 12 samples.

Results

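Genes of fatty acid oxidation and of its regulator, the nuclear receptor PPAR-alpha, were followed across mouse kidneys with and without Alport disease. The genes were taken from a list of 34 symbols, matched to the platform annotation of the array. Probe sets were found for 32 of the 34, out of 19505 genes named on the array, and each of the 32 had 1 probe set. Acsl1 and Etfb were not analysed here. The study measured whole-kidney RNA of 12 samples on Clariom S expression arrays, with 3 samples in each of 4 groups. The wild type group received vehicle. The other 3 groups were Alport mice, hemizygous for a nonsense allele of COL4A5 (G5X), and received vehicle, losartan or metformin. COL4A5 encodes a collagen IV chain needed in the filter of the glomerulus. Losartan is an angiotensin receptor blocker used for proteinuric kidney disease, and metformin is a diabetes drug. Mice drank the drugs from week 6, losartan at first at 125 µg/mL and then at 250 µg/mL, and metformin at first at 2.5 mg/mL and then at 5 mg/mL. All mice were 16 weeks old at sacrifice, per the labels, although the same labels date the second dose from week 12 to week 20. Losartan is described there as co-administered; group names here follow the sample titles, which give 1 drug each. The allele is germline, so every cell of the Alport mice carries it and all 3 Alport groups share it. The labels do not say whether the samples came from separate animals, and p-values then measure only the spread between these samples.

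The kidney, and the proximal tubule above all, meets much of its energy demand by burning fatty acids. Long-chain fatty acids are taken up, activated to acyl-CoA and carried into mitochondria as carnitine esters, where the steps of beta-oxidation shorten them by a pair of carbons per turn. Very long and branched chains are first shortened in peroxisomes. PPAR-alpha is a fatty acid-sensing receptor that pairs with the retinoid X receptor on DNA and, with the coactivator PGC-1alpha, raises transcription of many of these genes.

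The array values are log2 signals, so a difference of 1 is a 2-fold difference in signal. They ran from 2.3 to 19.88, with sample medians between 5.88 and 6.06 and Pearson correlations across probe sets of 0.990 to 0.994 within groups. All 32 genes lay above the median of the sample in each of the 12 samples. Changes were tested with limma, and an adjusted p is its Benjamini-Hochberg value over all 22206 probe sets; a gene is said to have risen or fallen where it is under 0.05. The signals of different probe sets were not compared with each other, since probe sets differ in brightness for the same amount of RNA. The kidney was checked by its markers: Kap, the brightest of 24 proximal tubule markers, lay between 19.44 and 19.66, and Umod, the brightest of 7 thick ascending limb markers, between 18.51 and 18.94.

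The DNA element bound by PPAR-alpha and its partner is a direct repeat with 1 base between its arms, and the RefSeq promoter windows of the genes were searched for it. The windows hold 250 bases before and 50 bases after a gene's start in GRCm38.p6, and 30 of the 34 listed genes have at least 1, with 32 windows in all. The motif sought was AGGTCA, any 1 base and AGGTCA again, on both strands, with up to 2 mismatches over the 12 fixed positions. Of all 32851 windows 3.86% held a match, as did 4 of the 32 windows of listed genes. Counted by gene, 4.4% of 27025 genes had a match, and 4 of the 30 listed genes did (13.3%), namely Cd36, Echs1, Etfa and Slc25a20. In Slc25a20 the match lay after the start. The other 3 are shown because Cd36 and Echs1 are among the genes that fell in Alport kidneys while Etfa did not pass the test. Each is printed on the gene's own strand, the minus strand in all 3, with the match in capitals. The start used for Cd36 lies inside the gene, which spans chr5:17781690-17888959, and not at its outer end. For Echs1 and Etfa the start is the outer end of the gene.
Cd36, chr5:17835917-17835989, match on the opposite strand beginning 63 bases before the start: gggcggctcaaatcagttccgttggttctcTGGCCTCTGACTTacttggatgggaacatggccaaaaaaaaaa
Echs1, chr7:140116462-140116534, match on the gene's strand beginning 83 bases before the start: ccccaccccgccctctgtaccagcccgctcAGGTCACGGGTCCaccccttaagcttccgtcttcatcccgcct
Etfa, chr9:55512278-55512350, match on the opposite strand beginning 77 bases before the start: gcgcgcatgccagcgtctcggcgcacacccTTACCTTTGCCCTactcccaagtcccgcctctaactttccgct
The element of estrogen-related receptors, searched as TCAAGGTCA with no mismatch on both strands, was in 0.423% of all windows and in 0 of the 32. A match describes these letters only; binding was not measured.

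Fatty acid oxidation genes were lower in Alport than in wild type kidneys, both given vehicle. Of the 32 genes 17 fell (53.1%) and 0 rose, while 7.71% of all probe sets fell and 8.43% rose. At an unadjusted limma p under 0.05, 21 were lower and 0 higher. The share of all probe sets at that unadjusted threshold was not counted, here or for the comparisons below. Counts at an unadjusted p therefore have no background to be read against. The median change of the 32 was -0.61, against -0.03 for all probe sets, and 30 of the 32 changes were below 0. In 22 genes (68.8%) every Alport vehicle sample lay below every wild type sample, as it did for 15.5% of all probe sets. Among the 9840 probe sets that, like these genes, were above the sample median in every sample, 14.9% fell and 11.2% rose. With each sample centred on its median, 1451 probe sets rose and 2842 fell in place of 1871 and 1711; all 17 genes kept their call there, and Cpt2, Acaa1a, Acaa1b and Acot1 were added. After a new quantile normalization 10 of the 17 kept it, and Acadl, Acadvl, Crot, Echs1, Ehhadh, Ppargc1a and Slc27a2 lost it; all of these but Ehhadh also lost it in a fit of only these 2 groups. In bulk tissue, fewer cells of a type and less RNA per cell cannot be told apart.

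**Figure D1:**
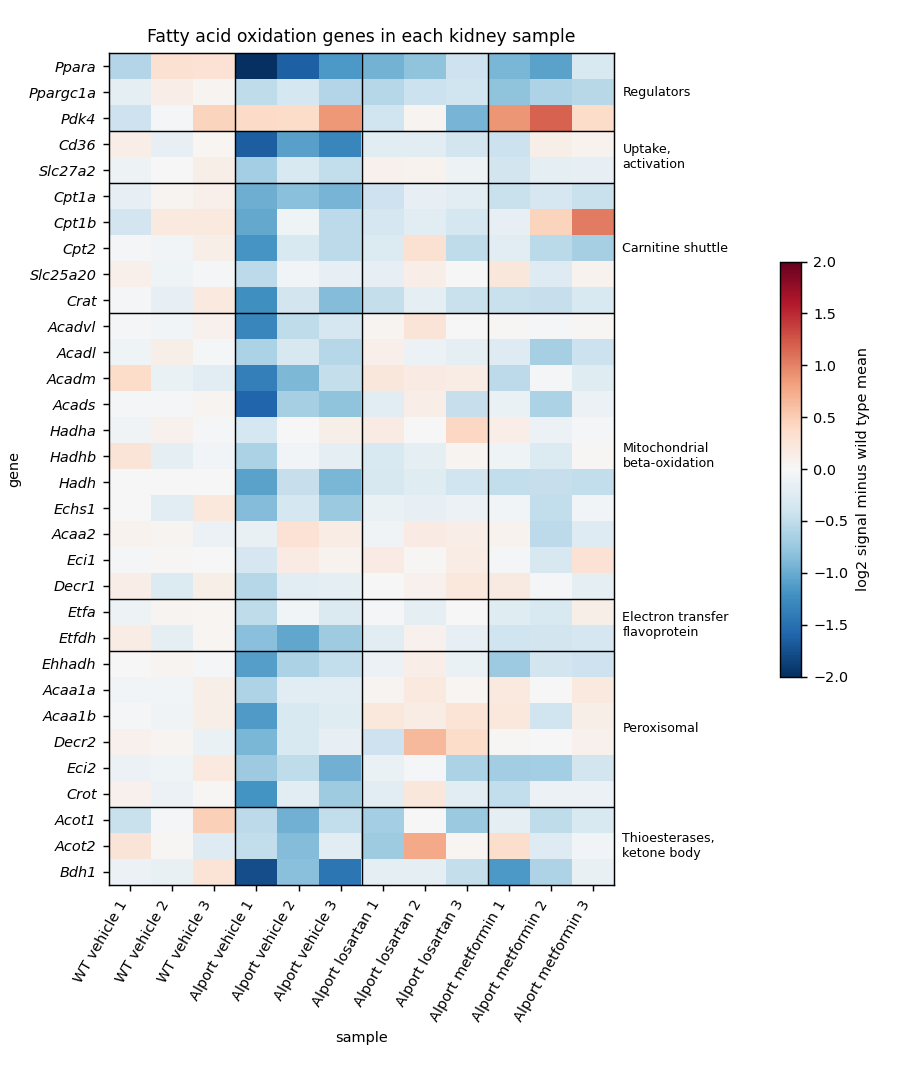
Signal of the 32 genes (rows, grouped by role) in each of the 12 samples (columns), as log2 signal minus the mean of the wild type samples; blue is lower and red higher, and colours end at a difference of 2. Most rows are blue in the 3 Alport vehicle samples, deepest in sample 1, and pale in the drug-treated samples; Pdk4 is red in the Alport vehicle and metformin samples.

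Alport vehicle sample 1 was the lowest of all 12 samples in 24 of the 32 genes. Its mean difference from wild type over the 32 genes was -0.88, beside -0.43 and -0.48 in samples 2 and 3. Without it 8 genes fell against wild type, with a median change of -0.45 over the 32. Its proximal tubule markers were also the lowest, with a mean difference of -1.14 from wild type, beside -0.71 and -0.83. Leaving out wild type sample 3 left 9 genes fallen, and the counts without each of the other 4 samples in turn ran from 11 to 18.

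Both PPAR-alpha and PGC-1alpha transcripts fell. Ppara had log2 signals of 11.2, 12.09 and 12.08 in wild type and 9.71, 10.16 and 10.64 in Alport vehicle samples. The groups did not overlap, and Ppara fell by 1.62 ± 0.28 (SE, 3 samples in each group, adjusted p = 0.000761), or 3.07-fold, which was the largest change among the 32 genes. Ppargc1a, which encodes PGC-1alpha, had values of 13.84, 14.17 and 14.09 in wild type and 13.52, 13.68 and 13.45 in Alport vehicle samples. It fell by 0.48 ± 0.16 (adjusted p = 0.0482), also with no overlap. Its call was lost without wild type sample 2 or 3 or Alport vehicle sample 1 or 3, with adjusted p-values of 0.115 to 0.157, and it was lost after a new quantile normalization (change -0.29, adjusted p = 0.265). Pdk4, a kinase that shuts off pyruvate dehydrogenase and a classic PPAR target, was at 7.63, 8.01 and 8.49 in wild type and 8.42, 8.41 and 8.91 in Alport vehicle samples. The groups overlapped, and the change of 0.54 ± 0.28 did not pass the test (adjusted p = 0.224).

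The 2 measured genes of uptake and activation on the list fell as well (100%, where 7.71% of all probe sets fell). This does not hold for activation as a whole. The acyl-CoA synthetases Acsl4 and Acsl5, from the wider list described below, rose by 1.31 and 1.07. Cd36, a fatty acid translocase of the cell surface, had signals of 15.28, 14.99 and 15.19 in wild type and 13.5, 14.06 and 13.84 in Alport vehicle samples. All Alport vehicle values lay below all wild type values, and Cd36 fell by 1.35 ± 0.19 (adjusted p = 0.000129), the smallest p among the 32 genes. Cd36 is also made by macrophages and endothelial cells. The summed signal of 10 macrophage markers was 11.39 to 11.53 in wild type and 13.28 to 15.07 in Alport vehicle samples, and that of 7 endothelial markers 14.08 to 14.18 and 14.15 to 14.6. Slc27a2, a carrier with very long-chain acyl-CoA synthetase activity, was at 18.51, 18.61 and 18.72 in wild type and 17.93, 18.3 and 18.12 in Alport vehicle samples. It fell by 0.50 ± 0.16 (adjusted p = 0.0417). Its call was lost without any 1 of the 3 wild type samples or Alport vehicle sample 1 or 3, with adjusted p-values of 0.0608 to 0.156.

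In the carnitine shuttle, 2 of 5 genes fell (40%), where 7.71% of all probe sets fell. Cpt1a, the liver and kidney form of the outer-membrane carnitine palmitoyltransferase and the main control point of mitochondrial entry, was at 15.22, 15.44 and 15.48 in wild type. In the Alport vehicle samples it was at 14.41, 14.55 and 14.45, all below the wild type range. It fell by 0.91 ± 0.15 (adjusted p = 0.000583). Crat, which moves short acyl groups between carnitine and CoA, had values of 12.48, 12.36 and 12.71 in wild type and 11.3, 12.16 and 11.66 in Alport vehicle samples. It fell by 0.81 ± 0.20 (adjusted p = 0.0103), but not without wild type sample 3 or Alport vehicle sample 1 (adjusted p = 0.0531 and 0.0618). Cpt2, the inner-membrane transferase, differed by -0.67 ± 0.24 (adjusted p = 0.0655) with no overlap of the groups, and by -0.86 (adjusted p = 0.0267) without Alport vehicle sample 2. The carrier Slc25a20 differed by -0.25 (95% interval -0.63 to 0.13) and the muscle form Cpt1b by -0.54 (-1.13 to 0.05), and neither passed the test.

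The first step of mitochondrial beta-oxidation is carried out by acyl-CoA dehydrogenases of different chain length. All 4 on the list fell, where 7.71% of all probe sets did. Acadvl, for very long chains, had signals of 13.31, 13.29 and 13.42 in wild type and 12.04, 12.83 and 13.01 in Alport vehicle samples, and fell by 0.71 ± 0.21 (adjusted p = 0.0272). Acadl, for long chains, was at 14.98, 15.18 and 15.04 and at 14.43, 14.75 and 14.5, and fell by 0.51 ± 0.17 (adjusted p = 0.0488). Acadm, for medium chains, was at 13.46, 12.97 and 12.87 and at 11.74, 12.2 and 12.63, and fell by 0.91 ± 0.22 (adjusted p = 0.00944). None of these groups overlapped. Acads, for short chains, had values of 11.0, 11.0 and 11.07 in wild type and 9.43, 10.36 and 10.22 in Alport vehicle samples, and fell by 1.02 ± 0.24 (adjusted p = 0.00639). The call of Acads held without each of the 6 samples in turn. That of Acadvl was lost without any 1 wild type sample or Alport vehicle sample 1 (adjusted p = 0.0577 to 0.131), that of Acadl without any of the 6 but Alport vehicle sample 2 (0.0765 to 0.153), and that of Acadm without wild type sample 1 or Alport vehicle sample 1 (0.0567 and 0.0575).

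The later steps were uneven. Hadh, the hydroxyacyl-CoA dehydrogenase for shorter chains, was at 16.23, 16.25 and 16.25 in wild type and 15.17, 15.78 and 15.33 in Alport vehicle samples. It fell by 0.82 ± 0.17 (adjusted p = 0.00291), and the call held without each sample in turn. Echs1, the short-chain enoyl-CoA hydratase, was at 13.63, 13.42 and 13.84 and at 12.76, 13.28 and 12.89. It fell by 0.65 ± 0.19 (adjusted p = 0.0231), but not without wild type sample 1 or 3 or Alport vehicle sample 1 or 3 (adjusted p = 0.0614 to 0.103). The other 5 genes did not pass the test. Hadha and Hadhb encode the subunits of the trifunctional protein, which carries out the last 3 steps for long chains. Hadha was at 12.9, 13.06 and 12.95 in wild type and 12.62, 12.98 and 13.08 in Alport vehicle samples, a difference of -0.08 with a 95% interval of -0.44 to 0.29. Hadhb was at 13.38, 12.94 and 13.07 and at 12.5, 13.07 and 12.95, a difference of -0.29 (-0.69 to 0.11). In both genes the groups overlapped. Acaa2, the mitochondrial thiolase, differed by 0.10 (-0.29 to 0.48), and its mean was highest in the Alport vehicle group. Eci1 and Decr1, which let unsaturated fatty acids enter the pathway, differed by -0.03 (-0.42 to 0.36) and -0.32 (-0.69 to 0.06).

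Hadha and Hadhb lie head to head on chromosome 5 with 272 bases between their RefSeq starts, so that 228 bases of their promoter windows are the same DNA. The 250 bases before the Hadha start, chr5:30154981-30155230 in GRCm38.p6, are shown on the minus strand. They lie between the starts and hold all of the shared DNA, but reach beyond the Hadhb window. Their GC content is 58.8%, where the median over all windows is 52.4%, and neither searched motif was found there.
Hadha: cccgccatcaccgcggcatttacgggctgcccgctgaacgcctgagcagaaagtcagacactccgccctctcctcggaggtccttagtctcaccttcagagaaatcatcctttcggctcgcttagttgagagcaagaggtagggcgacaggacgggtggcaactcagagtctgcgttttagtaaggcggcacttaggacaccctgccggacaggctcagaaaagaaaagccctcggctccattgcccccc

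Electrons from the acyl-CoA dehydrogenases pass through electron transfer flavoprotein to its dehydrogenase, Etfdh. Etfdh was at 13.92, 13.58 and 13.81 in wild type and 12.94, 12.73 and 13.06 in Alport vehicle samples, with no overlap. It fell by 0.86 ± 0.16 (adjusted p = 0.00156), a call that held without each sample in turn. Etfa, the alpha subunit of the flavoprotein, differed by -0.28 (95% interval -0.65 to 0.08) and did not pass the test.

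In all 6 peroxisomal genes every Alport vehicle sample lay below every wild type sample, as in 15.5% of all probe sets. Of the 6, 3 fell (50%), where 7.71% of all probe sets fell. Ehhadh, the bifunctional enzyme of peroxisomal beta-oxidation and a strong PPAR-alpha target, was at 16.15, 16.21 and 16.12 in wild type and 15.06, 15.52 and 15.66 in Alport vehicle samples. It fell by 0.75 ± 0.18 (adjusted p = 0.00891). Eci2, an enoyl-CoA isomerase, was at 13.05, 13.07 and 13.36 and at 12.44, 12.65 and 12.2, and fell by 0.73 ± 0.20 (adjusted p = 0.0164). Crot, which passes shortened chains to carnitine, was at 16.0, 15.81 and 15.94 and at 14.72, 15.7 and 15.21, and fell by 0.71 ± 0.22 (adjusted p = 0.0399). The call of Ehhadh was lost without Alport vehicle sample 1 (adjusted p = 0.0533), that of Eci2 without wild type or Alport vehicle sample 3 (0.0775 and 0.074), and that of Crot without any of the 6 but Alport vehicle sample 2 (0.0663 to 0.197). The thiolases Acaa1a and Acaa1b differed by -0.36 and -0.56, and the dienoyl-CoA reductase Decr2 by -0.46, with adjusted p-values of 0.158, 0.105 and 0.244. Acaa1a and Acaa1b are near-identical genes that can share signal on an array, as are the acyl-CoA thioesterases Acot1 and Acot2, and their separate values are uncertain.

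Bdh1, the mitochondrial enzyme that interconverts the ketone bodies acetoacetate and beta-hydroxybutyrate, was at 13.63, 13.6 and 14.02 in wild type and 11.98, 12.91 and 12.31 in Alport vehicle samples. The groups did not overlap, and Bdh1 fell by 1.35 ± 0.26 (adjusted p = 0.00154), a call that held without each sample in turn. Acot1 differed by -0.66 ± 0.24 (adjusted p = 0.0776), and by -0.89 without wild type sample 1 (adjusted p = 0.0292). Acot2 differed by -0.54 ± 0.29 (adjusted p = 0.257).

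**Figure D2:**
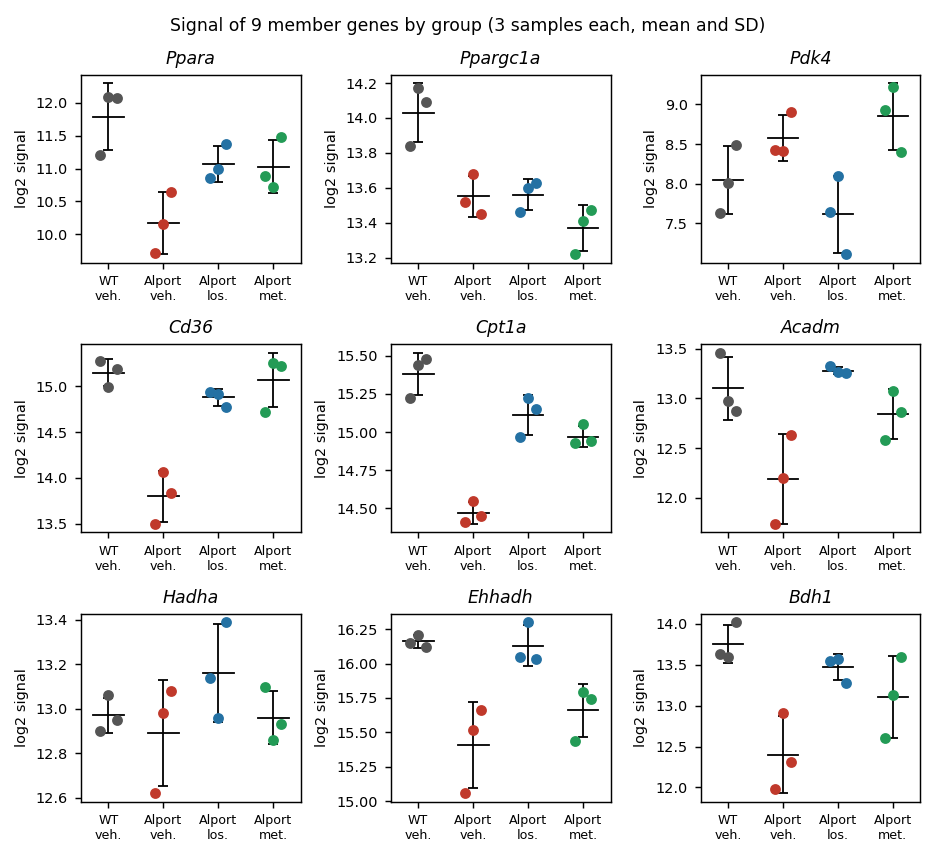
Log2 signal (vertical axes, each with its own range) of 9 of the genes in the 4 groups; points are samples, long bars means and whiskers SD over 3 samples. Cd36, Cpt1a and Ppara are lowest with Alport vehicle and higher with either drug, Ppargc1a stays at 13.22 to 13.68 in all Alport groups, Pdk4 is lowest with losartan, and Hadha overlaps throughout.

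With losartan, 9 of the 32 genes rose against Alport vehicle (28.1%) and 1 fell (3.12%), while 3.79% of all probe sets rose and 4.11% fell. Counts at an unadjusted p under 0.05 were 21 higher and 1 lower. The median change of the 32 was 0.50, against 0.01 for all probe sets. In 17 genes (53.1%) all losartan samples lay above all Alport vehicle samples, as in 11.8% of all probe sets. Of the 9 genes that rose, 8 are among those that fell in Alport vehicle kidneys, a comparison that shares the Alport vehicle samples with this one; the ninth was Acaa1b. With each sample centred on its median, 1238 probe sets rose and 724 fell in place of 842 and 913.

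Cd36 was at 14.94, 14.92 and 14.78 with losartan, above each Alport vehicle sample, and rose by 1.08 ± 0.19 (adjusted p = 0.00306). Acadm was at 13.33, 13.27 and 13.25 and rose by 1.09 ± 0.22 (adjusted p = 0.00733). Both calls held without each sample in turn. Etfdh was at 13.54, 13.85 and 13.6 and rose by 0.75 ± 0.16 (adjusted p = 0.0104), except without losartan sample 2 (adjusted p = 0.0617). Cpt1a, at 14.97, 15.22 and 15.15, rose by 0.64 ± 0.15 (adjusted p = 0.0168). Bdh1, at 13.55, 13.57 and 13.28, rose by 1.07 ± 0.26 (adjusted p = 0.0177). None of these genes overlapped with the Alport vehicle samples.

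Ehhadh was at 16.05, 16.3 and 16.03 with losartan and rose by 0.71 ± 0.18 (adjusted p = 0.0232). Acadvl, at 13.39, 13.59 and 13.35, rose by 0.82 ± 0.21 (adjusted p = 0.0242). Acads, at 10.8, 11.16 and 10.56, rose by 0.84 ± 0.24 (adjusted p = 0.0387), and Acaa1b, at 11.52, 11.46 and 11.58, by 0.77 ± 0.22 (adjusted p = 0.0447). These 4 genes too lay above every Alport vehicle sample. Of the other calls, that of Cpt1a was lost without Alport vehicle sample 1 or losartan sample 2 or 3 (adjusted p = 0.0587 to 0.0804), and that of Bdh1 without Alport vehicle sample 1 or 3 or losartan sample 1 or 2 (0.0502 to 0.0976). Without Alport vehicle sample 1 the genes that rose were 3, namely Cd36, Acadm and Etfdh, and without losartan sample 2 they were 2, Cd36 and Acadm. The count was 14 without Alport vehicle sample 2, 9 without Alport vehicle sample 3, 8 without losartan sample 1, and 5 both without losartan sample 3 and in a fit of only these 2 groups, where Acads, Acaa1b, Acadvl and Ehhadh lost their calls. Ehhadh and Acaa1b also lost theirs after quantile normalization (adjusted p = 0.0717 and 0.0598).

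Of the 3 regulators 1 fell and 0 rose with losartan, where 4.11% of all probe sets fell and 3.79% rose. Ppara was at 10.85, 10.99 and 11.38 with losartan, above all Alport vehicle samples, but its change of 0.90 ± 0.28 did not pass the test (adjusted p = 0.0611). It did pass with each sample centred on its median (change 1.00, adjusted p = 0.0348) and without Alport vehicle sample 3 (1.14, adjusted p = 0.0351). Ppargc1a was at 13.46, 13.6 and 13.63, within 0.01 ± 0.16 of Alport vehicle (adjusted p = 0.977). Pdk4, at 7.64, 8.09 and 7.11, fell by 0.97 ± 0.28 (adjusted p = 0.0416). That call was lost without Alport vehicle sample 1 or 3 or losartan sample 1 or 3 (adjusted p = 0.0831 to 0.185), and with median centring (change -0.87, adjusted p = 0.0559).

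**Figure D3:**
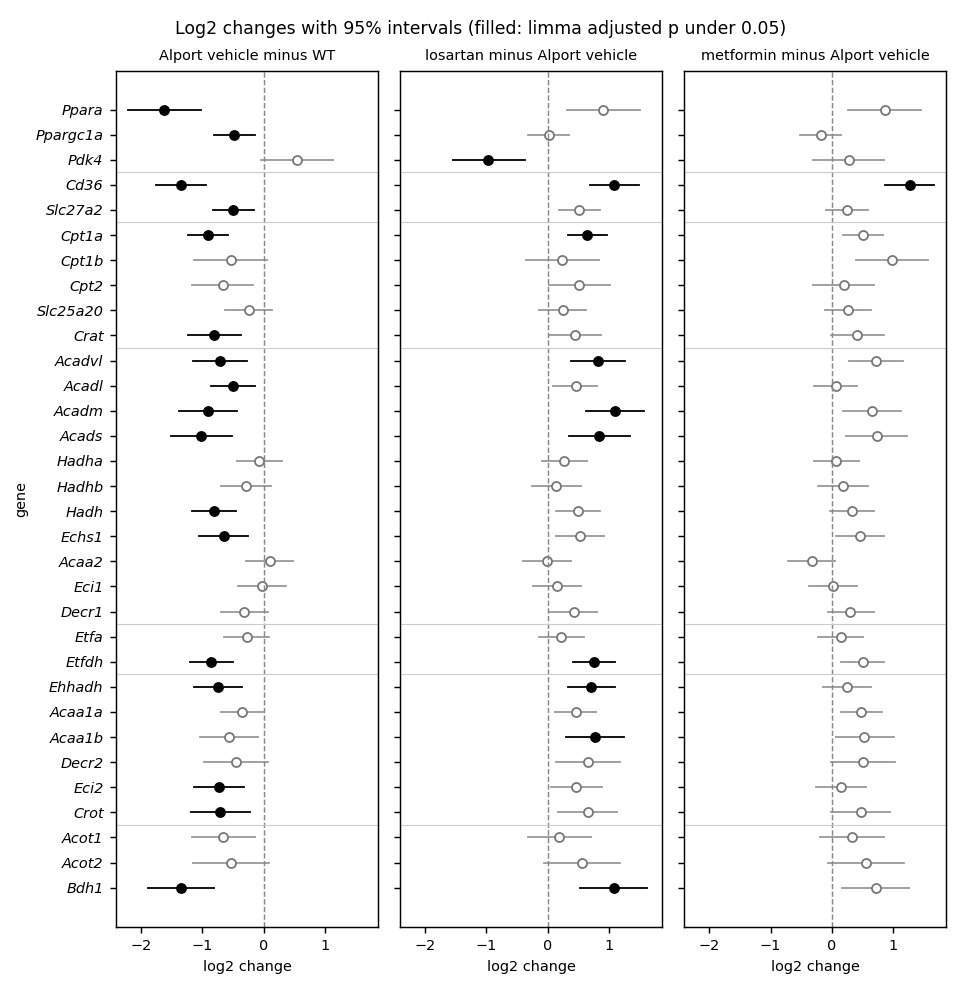
Log2 change (horizontal axis) of each of the 32 genes in Alport vehicle minus wild type, losartan minus Alport vehicle and metformin minus Alport vehicle, with 95% intervals; filled points have a limma adjusted p under 0.05. In the first panel 17 points are filled, all left of 0; in the second 9 are filled right of 0 and Pdk4 left of it; in the third Cd36 is the filled point. The 3 panels share the Alport vehicle samples.

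With metformin, Cd36 was the gene that rose against Alport vehicle, 1 of 32 (3.12%), and 0 fell, while 2.67% of all probe sets rose and 2.27% fell. Cd36 was at 14.72, 15.26 and 15.22, above every Alport vehicle sample. It rose by 1.27 ± 0.19 (adjusted p = 0.00227), and the call held without each sample in turn. At an unadjusted p under 0.05, 12 genes were higher and 0 lower. The median change of the 32 was 0.37, against -0.01 for all probe sets, and 8 genes (25%) lay above all Alport vehicle samples, as 10.6% of all probe sets did; 0 lay below them, against 9.88% of all.

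Several genes were close to the threshold with metformin. Cpt1b was at 7.95, 8.57 and 9.16, and its change of 0.98 ± 0.28 (adjusted p = 0.0553) came with overlapping groups. It passed without Alport vehicle sample 2 or metformin sample 1 (adjusted p = 0.0245 and 0.0155). Cpt1b is best known from muscle; of 10 striated muscle markers 8 were below the sample median in all 12 samples, and their summed signal was 7.94 to 8.25 in Alport vehicle and 8.0 to 8.23 in metformin samples. Acadvl, at 13.37, 13.3 and 13.37, lay above all Alport vehicle samples and differed by 0.72 ± 0.21 (adjusted p = 0.0593). It passed without Alport vehicle sample 2 or 3 (adjusted p = 0.0494 and 0.0299). Cpt1a, at 14.93, 15.05 and 14.94, differed by 0.50 ± 0.15 (adjusted p = 0.0708). Ppara, at 10.88, 10.72 and 11.48, differed by 0.86 ± 0.28 (adjusted p = 0.095). Cpt1a and Ppara also lay above all Alport vehicle samples. Acads passed without Alport vehicle sample 2 (change 0.91, adjusted p = 0.0447), Acadm without Alport vehicle sample 3 (0.87, adjusted p = 0.0448), and Bdh1 without Alport vehicle sample 2 or metformin sample 1 (0.97 and 0.96, adjusted p = 0.0371 and 0.0467). With each sample centred on its median, Cpt1a, Cpt1b and Acadvl joined Cd36, and over all probe sets 827 rose and 381 fell in place of 592 and 504.

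Ppargc1a had its lowest mean with metformin, at 13.22, 13.41 and 13.47, and differed from Alport vehicle by -0.18 ± 0.16 (adjusted p = 0.615). Ehhadh was at 15.44, 15.79 and 15.74 and differed by 0.24 ± 0.18 (adjusted p = 0.538), where losartan gave 0.71. Acadl was at 14.81, 14.41 and 14.64 and differed by 0.06 ± 0.17 (adjusted p = 0.909), where losartan gave 0.45 ± 0.17 (adjusted p = 0.124). Both drug comparisons use the same Alport vehicle samples.

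Set directly against each other, the drug groups differed in 0 of the 32 genes, and 0.018% of all probe sets were higher and 0.027% lower with metformin. At an unadjusted p under 0.05, 2 genes were higher and 2 lower with metformin. In 2 genes all metformin samples lay above all losartan samples and in 6 below them, against 5.77% and 7.74% of all probe sets. Pdk4 was at 8.93, 9.22 and 8.4 with metformin, above each losartan sample, a difference of 1.24 ± 0.28 (95% interval 0.65 to 1.82, adjusted p = 0.15). Without metformin sample 3 it was 1.46 and passed the test (adjusted p = 0.0416). Cpt1b was 0.75 higher (0.15 to 1.34, adjusted p = 0.483). Ehhadh differed by -0.47 (-0.85 to -0.09, adjusted p = 0.493) and Acadl by -0.39 (-0.74 to -0.03, adjusted p = 0.565). Over the 32 genes the 95% intervals reached from -0.92 to 1.82, the upper end being that of Pdk4. The median SE was 0.19, and for each gene differences within its own interval were not excluded.

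Against wild type, losartan-treated Alport kidneys had 0 genes called, where 0.401% of all probe sets rose and 0.149% fell, with 0 genes higher and 2 lower at an unadjusted p under 0.05. The median change was -0.09, and Bdh1, Cd36, Crat, Hadh and Ppargc1a lay below all wild type samples in all 3 losartan samples, 5 of 32 where 8.32% of all probe sets did; in 1 gene all lay above, where 8.4% did. The pair at unadjusted p under 0.05 was Ppara (-0.72) and Ppargc1a (-0.47). Metformin-treated kidneys had 1 gene fall and 0 rise, where 1.48% of all probe sets fell and 2.7% rose (329 and 599, or 486 and 513 with median centring). It was Ppargc1a, which fell by 0.67 ± 0.16 against wild type (adjusted p = 0.0265). Its call was lost without wild type sample 2 or 3 or metformin sample 1 or 2 (adjusted p = 0.0683 to 0.128), and in a fit of only these 2 groups (adjusted p = 0.0521). With metformin 11 genes lay below all wild type samples (34.4% of the 32, against 12.2% of all probe sets), among them Cpt1a, Hadh, Ehhadh and Etfdh. At an unadjusted p under 0.05, 1 gene was higher, Pdk4, and 9 were lower.

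The order of the group means varied between genes. The Alport vehicle mean was the lowest of the 4 in 29 of the 32 genes and the wild type mean the highest in 18. The metformin mean was above the losartan mean in 7 genes, namely Acaa1a, Acot1, Cd36, Cpt1b, Hadhb, Pdk4 and Slc25a20. In all, 13 genes were called in 0 of the 6 comparisons: Acaa1a, Acaa2, Acot1, Acot2, Cpt1b, Cpt2, Decr1, Decr2, Eci1, Etfa, Hadha, Hadhb and Slc25a20. Mean differences from wild type over the 11 mitochondrial beta-oxidation genes were -0.81, -0.27 and -0.35 in the Alport vehicle samples, -0.03 to 0.01 with losartan and -0.32 to -0.11 with metformin. Over the 6 peroxisomal genes they were -0.95, -0.37 and -0.46, then -0.10 to 0.22 and -0.26 to -0.08.

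**Figure D4:**
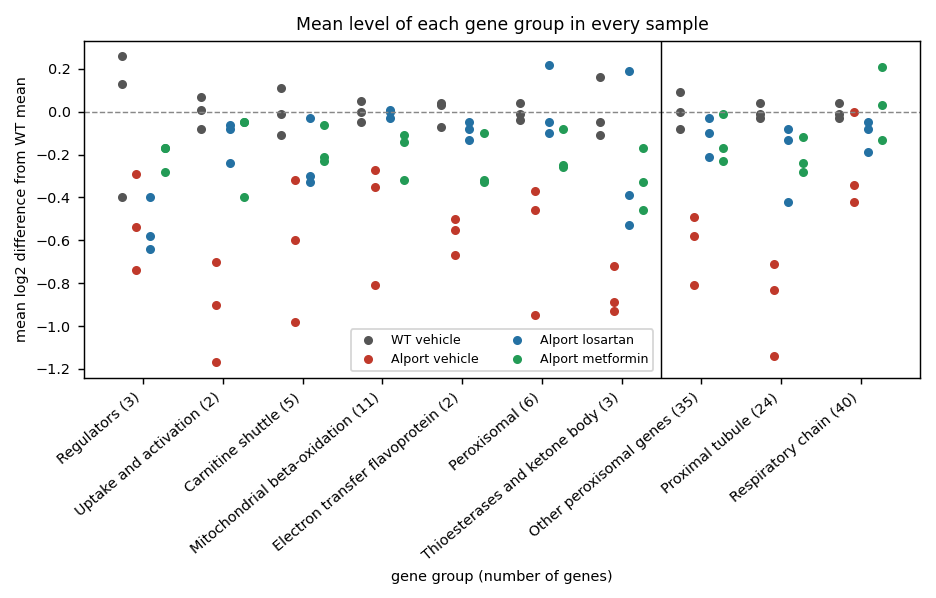
Mean log2 difference from the wild type mean (vertical axis) in each sample, for the 7 roles of the 32 genes (left of the line) and for other peroxisomal genes, proximal tubule markers and respiratory chain genes (right); points are samples, and brackets give the number of genes. The Alport vehicle points are the lowest for uptake and peroxisomal genes, while for mitochondrial beta-oxidation a metformin sample at -0.32 lies below an Alport vehicle sample at -0.27; the proximal tubule markers have all Alport vehicle points lowest, at -1.14 to -0.71 with Alport vehicle.

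A wider list of 118 other genes of the pathway was also examined in Alport vehicle kidneys. It held more mitochondrial and peroxisomal enzymes, nuclear receptors and coactivators, and ketone body and PPAR-alpha target genes. Hnf4a is also in the proximal tubule list used below, and Fabp4, Cidec and Cidea are in the adipocyte or brown fat list. Of the 118, 47 fell (39.8%) and 4 rose (3.39%), with a median change of -0.50, while 7.71% of all probe sets fell and 8.43% rose. The fallen genes were 12 of 28 other mitochondrial fatty acid genes, 17 of 35 other peroxisomal genes, 10 of 23 receptors and coactivators and 8 of 32 ketone body and target genes. Of 40 respiratory chain genes 11 fell (27.5%) and 0 rose, with a median of -0.20. Among probe sets above the sample median in every sample, 14.9% fell.

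Those with the smallest p among the fallen were 3 peroxisomal enzymes and 3 regulators. Phyh, which starts the breakdown of phytanic acid, fell by 1.12 ± 0.14 (adjusted p = 6.6e-05). The branched-chain acyl-CoA oxidases Acox3 and Acox2 fell by 1.55 ± 0.21 and 1.53 ± 0.21 (adjusted p = 8.77e-05 and 0.000101). Hnf4a, a nuclear receptor of the proximal tubule, fell by 1.31 ± 0.16 (adjusted p = 4.16e-05). Lpin1, a phosphatidate phosphatase and coactivator, fell by 1.33 ± 0.19, and Ppargc1b, the relative of PGC-1alpha, by 1.24 ± 0.19 (adjusted p = 0.000142 and 0.000233). The genes that rose were Acsl4 (1.31 ± 0.18), which activates arachidonic acid, Acsl5 (1.07 ± 0.23), another acyl-CoA synthetase, the lipase inhibitor G0s2 (1.33 ± 0.33) and the peroxisomal carrier Abcd2. The Abcd2 signal was dim, below the sample median in all 12 samples and below the lower quartile in 9, so its change of 0.91 ± 0.22 is uncertain in size.

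With losartan 23 of the 118 rose (19.5%) and 2 fell (1.69%), while 3.79% of all probe sets rose and 4.11% fell. The median was 0.31, and 11 of the 23 came from the list of other peroxisomal genes. The smallest p-values belonged to Hnf4a (1.22 ± 0.16, adjusted p = 0.00053), the peroxisomal hydrolase Nudt12 (1.72 ± 0.28, adjusted p = 0.00206), Lpin1 (1.01), the thioesterase Acot12 (1.05), Phyh (0.73) and the methylmalonyl-CoA mutase Mmut (0.94). G0s2 fell by 1.27 ± 0.33 (adjusted p = 0.027) and Cpt1c, below the sample median in all 12 samples, by 0.79 ± 0.23 (adjusted p = 0.0476). With metformin 18 of the 118 rose (15.3%) and 1 fell (0.847%), while 2.67% of all probe sets rose and 2.27% fell. The median was 0.34, and 8 of the 18 came from the list of other peroxisomal genes. The 18 were led by Acox2 (1.51 ± 0.21, adjusted p = 0.00143), Acox3 (1.14), Hnf4a (0.83), the glycerol-3-phosphate dehydrogenase Gpd1 (0.94), Phyh (0.71) and the peroxisomal import receptor Pex5 (0.76). Prdm16, a transcription factor of brown fat that was also below the sample median in all 12 samples, fell by 0.96 ± 0.21 (adjusted p = 0.0154). Between the drugs 0 of the 118 were called, with 5 higher and 4 lower with metformin at an unadjusted p under 0.05.

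Acsl4 was higher than wild type in every Alport group. Its log2 signal was 10.29 to 10.67 in wild type, 11.43 to 11.97 with Alport vehicle, 11.53 to 11.65 in the losartan samples, and 11.42 to 11.72 in the metformin samples. Acsl4 was 1.13 ± 0.18 higher than wild type with losartan (adjusted p = 0.00865) and 1.16 ± 0.18 higher with metformin (adjusted p = 0.00179). It was the 1 gene of 118 called with losartan against wild type (0.847%), where 0.401% of all probe sets rose and 0.149% fell. With metformin Acsl5 was also above wild type (0.91 ± 0.23, adjusted p = 0.0323). Below wild type with metformin were Ppargc1b (-0.76 ± 0.19, adjusted p = 0.032), Perm1 (-0.90 ± 0.20, adjusted p = 0.0175), a PGC-1 and ERR-induced regulator below the sample median in 9 of 12 samples, the estrogen-related receptor Esrrg (-0.62 ± 0.16, adjusted p = 0.0352) and Retsat (-0.66 ± 0.17, adjusted p = 0.0442), a retinol saturase.

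Proximal tubule markers were also lower in Alport vehicle kidneys. Of 24 markers 20 fell there (83.3%, against 7.71% of all probe sets), with a median of -0.87. With losartan 10 rose (41.7%, against 3.79% of all), with a median of 0.56, where 9 of the 32 genes rose (median 0.50). With metformin 9 markers rose (37.5%, against 2.67% of all), with a median of 0.60, where 1 of the 32 genes rose (median 0.37). The summed log2 signal of the 24 markers was 21.85 to 21.9 in wild type and 21.15 to 21.36 with Alport vehicle. It was 21.65 to 21.76 with losartan and 21.63 to 21.78 with metformin. Of 7 thick ascending limb markers 0 were called in Alport against wild type, and of 5 distal tubule markers 2 fell (40%) and 0 rose. Against Alport vehicle, 1 of the 7 rose with metformin and 0 with losartan. Of the 5, 0 were called with either drug. Macrophage markers rose in 9 of 10 and interstitial matrix genes in 8 of 8 in Alport vehicle kidneys, where 8.43% of all probe sets rose. With losartan 8 of 10 and 8 of 8 fell, against 4.11% of all probe sets. With metformin 1 of 10 and 8 of 8 fell, against 2.27% of all. The part of these cell types in the changes of the 32 genes was not tested.

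Fat around the kidney also uses these genes. Of 6 adipocyte and 3 brown fat markers 5 and 2 were below the sample median in all 12 samples, and 0 were called in Alport vehicle against wild type. All 6 and all 3 were higher there, with medians of 0.57 and 0.51, and 2 of each list had an unadjusted limma p under 0.05. Fabp4 was the brightest of the 6 adipocyte markers, with a mean of 10.41 over all samples, and made up most of their sum. The summed adipocyte signal was 9.88 to 10.55 in wild type and 10.62 to 12.0 in Alport vehicle samples. For brown fat it was 4.82 to 5.02 and 5.06 to 7.32. Ucp1, the brown fat uncoupling protein, was at 6.93 in Alport vehicle sample 3, 4.64 in losartan sample 1, 4.13 in Alport vehicle sample 1 and 2.56 to 3.21 in the other samples. Adipoq was at 5.82 in Alport vehicle sample 3. Without that sample 11 of the 32 genes fell in Alport against wild type, and 9 rose with losartan, with Bdh1 lost and Ppara gained.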

How the data were processed

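Total RNA of 12 whole-kidney samples was labelled as biotinylated DNA and hybridised to Clariom S arrays, per the labels' protocols. Deposited values are log2 signals, 1 for each of 22206 probe sets in every sample, with 0 missing; that the scale is log2 was read from the values. The tool named, per the submitters' processing notes, is Transcriptome Analysis Console 4.0, and its background correction and normalization were not given in the sources used here; values may carry its choices. The number of arrays limits the precision.

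Probe sets were named from the platform annotation: 19572 carried 1 symbol and 2634 none. Groups were taken from the titles. A mean per group was fitted over all 12 samples with limma 3.58.1 (lmFit, eBayes, R 4.3.3), with 8 residual degrees of freedom, two-sided tests and Benjamini-Hochberg adjustment over all probe sets of a comparison, at 0.05. Lists are described by counts and medians, with no list test. Summed signals are log2 of the sum of linear signals. The fit was also run on simulated data, drawn as independent normal values with the spread of each probe set. Those data held no correlation between genes and no outlying sample, and the results here do not rest on them.

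The genes and lists were chosen with earlier results of these data known. All listed genes are named; of other pathway genes, up to 6 called genes with the smallest p per direction and comparison; of marker lists, the brightest. Single cell-type markers beside Cd36, Cpt1b and the fat genes, and Acsl4 across groups, were chosen after their values were seen. Equal replicate numbers did not pair samples: 0 of 18 such pairs had deviations correlated over 0.1. Alternatives were median centring, a new quantile normalization, a test without the 33.3% dimmest probe sets, a trended robust prior, array weights, the 2 groups alone, a replicate block and leaving out each sample.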

Additional observations from a re-analysis of the deposited data

How the results depend on the processing

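Over 192 results (32 genes in 6 comparisons), 0 changed direction while called; of 29 calls 10 held in every alternative run and 19 were lost in at least 1. The genes fallen in Alport vehicle kidneys numbered 17, 10 after quantile normalization, 11 with the 2 groups alone and 8 to 18 without 1 sample. Those risen with losartan numbered 9, 12 with median centring (Hadh, Ppara and Slc27a2 gained), 13 with the trended robust prior (these and Crot), 11 without the dimmest probe sets (Ppara and Slc27a2), 7 after quantile normalization, 5 with the 2 groups alone and 2 to 14 without 1 sample; the fallen 1 (Pdk4) was 0 with median centring or array weights and 0 to 1 without 1 sample. With metformin 1 rose, 4 with median centring, 3 without the dimmest probe sets, 4 with the trended robust prior and 1 to 5 without 1 sample. Metformin against losartan gave 0 to 1 higher without 1 sample. Metformin against wild type gave 1 lower, 2 with the trended robust prior, 0 with the 2 groups alone and 0 to 1 without 1 sample. The causes were not tested, except that fewer samples enter the smaller fits. Median centring moved the median change of all probe sets in Alport vehicle against wild type by -0.138, from -0.03 to -0.17. The calls over all probe sets went from 1871 up and 1711 down to 1451 and 2842 there, from 842 and 913 to 1238 and 724 with losartan, from 592 and 504 to 827 and 381 with metformin, and from 599 and 329 to 513 and 486 for metformin against wild type. The genes' own median there was -0.75 with median centring and -0.50 after quantile normalization. The alternative of another probe set per gene was not run, since each gene had 1.

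The replicate number as a block, which the pairing check does not support (correlations of -0.14 to 0.078 for equal numbers and -0.198 to 0.262 for others), kept 14 of the 17 falls. With losartan 8 rose under it, since Acads and Acaa1b were lost (adjusted p = 0.055 and 0.0549) and Ppara gained (0.0147), and Pdk4 was not called (0 lower). With it, 3 genes rose with metformin, and 2 fell for metformin against wild type.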
